A study of Rattus norvegicus with 2 samples.

Results

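Rfc1, Rfc2, Rfc3, Rfc4, Rfc5, Rpa1, Rpa2, Rpa3, Fen1 and Lig1 encode the clamp loader, the single-strand binding complex and the nick-processing enzymes of the DNA replication fork. They were chosen by gene name, with earlier results of these data known. Their probe sets are those that the platform annotation gives 1 of these 10 symbols. All 10 genes were measured, by 14 probe sets, among 14217 genes and 31099 probe sets in all. The tissue was rat liver left in place 24 h after partial hepatectomy (PH), an operation that takes away part of the organ. In the 1/3PH group the smaller fraction was removed, and in the 2/3PH group the larger. Strain, age, sex and genotype of the rats are not stated by the labels, and every rat was operated on, with no unoperated liver or other time analysed here. According to the series' design text, RNA from 3 rats was pooled in each group and the pools were compared to find mRNAs that separate a liver with much DNA replication from a liver with little. Each pool went on 1 Affymetrix array, so no difference given here has a replicate check, no test was possible, and animal-to-animal error is unknown.

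At a replication fork the helicase leaves single-stranded DNA, which replication protein A (RPA) coats and protects. Replication factor C (RFC), the clamp loader, recognises the end of a primer and opens the ring-shaped clamp Pcna around the DNA, so that polymerase stays attached. The lagging strand is made in short Okazaki fragments. The flap endonuclease Fen1 removes the displaced primer end of each fragment, and DNA ligase 1 (Lig1) seals the nick that is left. In adult liver most hepatocytes are quiescent, and loss of tissue brings them back into the cell cycle.

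Of the 10 genes, 8 were at least 2-fold higher on the 2/3PH array, and Rfc1 and Rpa3 were not. The background was 6.12% of the 9514 genes above a floor on signal for a difference of 2-fold or more upward, and 3.68% for 1 downward. No member was 2-fold lower by the probe set that stands for it. Of the 13 member probe sets above the floor, 9 were past 2-fold upward and 0 downward, against 5.70% and 3.76% of all probe sets above it. The median log2 ratio of the 10 members was 1.47, against 0.03 over all genes above the floor. A log2 ratio here is the log2 signal after 2/3PH minus that after 1/3PH, so that 1 is a 2-fold difference. A gene with several probe sets is represented by the brightest of them, and the floor is a signal of 89.2, the median over probe sets, which all 10 members passed. At a limit of 3-fold higher, 4 of the 10 members were past it, against 2.24% of all genes, and at 4-fold 2 were, against 1.44%.

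**Figure D1:**
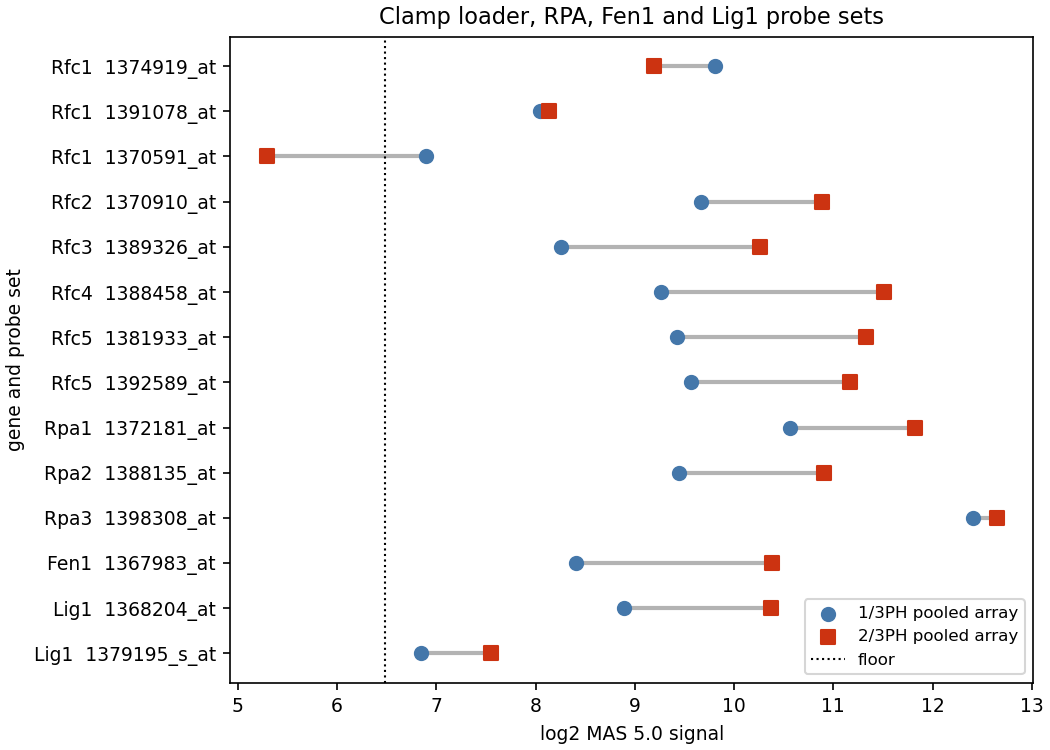
Log2 MAS 5.0 signal (horizontal axis) of each of the 14 probe sets (vertical axis) in the pools of 1/3PH (circles) and 2/3PH (squares), with the floor as a dotted line. In 9 probe sets the square lies at least 1 unit to the right, whereas the 3 Rfc1 probe sets, Rpa3 and the dimmer Lig1 probe set show a smaller or opposite difference.

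Rfc4, a small ATPase subunit of the clamp loader, had the highest ratio of the 10 genes. Its signals were 615 after 1/3PH and 2911 after 2/3PH, 4.73-fold higher, with a log2 ratio of 2.24. Only 95 of the 9514 genes had a higher ratio. Rfc3, another small subunit, had signals of 306 and 1227, a 4.01-fold difference with a log2 ratio of 2.00. Rfc5, a small subunit measured by 2 probe sets of like brightness, had signals of 687 and 2571 by the brighter and 757 and 2305 by the other. These gave 3.74-fold and 3.05-fold differences, so both Rfc5 probe sets stood on the same side of 2-fold and 3-fold. Rfc2, the remaining small subunit, had signals of 813 and 1892, 2.33-fold higher, with a log2 ratio of 1.22. All 4 small subunits were therefore past 2-fold, and their median log2 ratio was 1.95.

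Rfc1, the large subunit that makes the complex specific for loading Pcna, differed from its partners. Its brightest probe set, 1374919_at, had signals of 897 and 586 in the same order, 1.53-fold lower. The second, 1391078_at, had signals of 264 and 281, a log2 ratio of 0.09. That ratio ran from 0.00 after quantile normalization to 0.53 with poly-A control scaling. The dimmest, 1370591_at, had signals of 119 and 39.2, the latter below the floor, which makes it at least 1.33-fold lower. None of the 3 Rfc1 probe sets was 2-fold higher, and they did not share a direction. The brighter pair differed by 0.71 in log2 ratio, a wider range than in 84.8% of the 2067 genes for which more than 1 probe set passed the floor. Which Rfc1 transcripts each probe set detects was not analysed here.

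The gap between Rfc1 and the small subunits can be set against the disagreement between probe sets of a single gene. Over those 2067 genes, the log2 ratios of the 2 brightest probe sets of a gene lay within 0.92 of each other in 95% of cases. This yardstick was computed from the values as deposited, and covers error within the arrays and no variation between animals. Rfc1 lay 1.83 below Rfc2, 2.52 below Rfc5, 2.62 below Rfc3 and 2.86 below Rfc4, all past it. These gaps rest on the brightest Rfc1 probe set, at -0.61. The second stood at 0.09, so that gaps from it are 0.71 smaller, with the small subunits at 1.22 to 2.24. Among the small subunits only Rfc4 and Rfc2 were further apart than the yardstick, by 1.02. The full range over all probe sets of a gene above the floor lay within 1.03 in 95% of cases, which this gap did not pass. A difference between 2 genes of the same arrays stays the same when an array is rescaled by a single factor. Bulk liver RNA does not tell more cells that express a gene from more RNA per cell.

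The subunits of RPA were also unequal. Rpa1, the large subunit that carries most of the DNA-binding domains, had signals of 1517 and 3616, 2.38-fold higher, with a log2 ratio of 1.25. Rpa2, the middle subunit, a target of checkpoint kinases, had signals of 699 and 1913, 2.74-fold higher, with a log2 ratio of 1.45. Rpa1 and Rpa2 differed by 0.20, within the yardstick. Rpa3, the smallest subunit, which is needed to assemble the trimer, had signals of 5418 and 6404, 1.18-fold higher. Its log2 ratio of 0.24 lay 1.01 below Rpa1 and 1.21 below Rpa2, past the yardstick in both cases as deposited. The gap to Rpa1 was within the 1.03 of the full range between probe sets. With quantile normalization the gap to Rpa1 was 0.86, within the yardstick, and the gap to Rpa2 was 1.01. Each RPA gene had a single probe set, so no second probe set was there to compare.

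The enzymes that finish Okazaki fragments were both higher. Fen1 had signals of 340 and 1338, 3.94-fold higher, with a log2 ratio of 1.98. Lig1 had signals of 475 and 1324 by its brighter probe set, 2.79-fold higher, with a log2 ratio of 1.48. Its dimmer probe set, 1379195_s_at, of a class designed to match more than a single transcript, had signals of 115 and 188, 1.63-fold higher. Lig1 is thus the only member past 2-fold whose probe sets stood on both sides of that limit, and 7 genes were past it by every probe set they had. Fen1 and Lig1 differed by 0.50, within the yardstick.

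**Figure D2:**
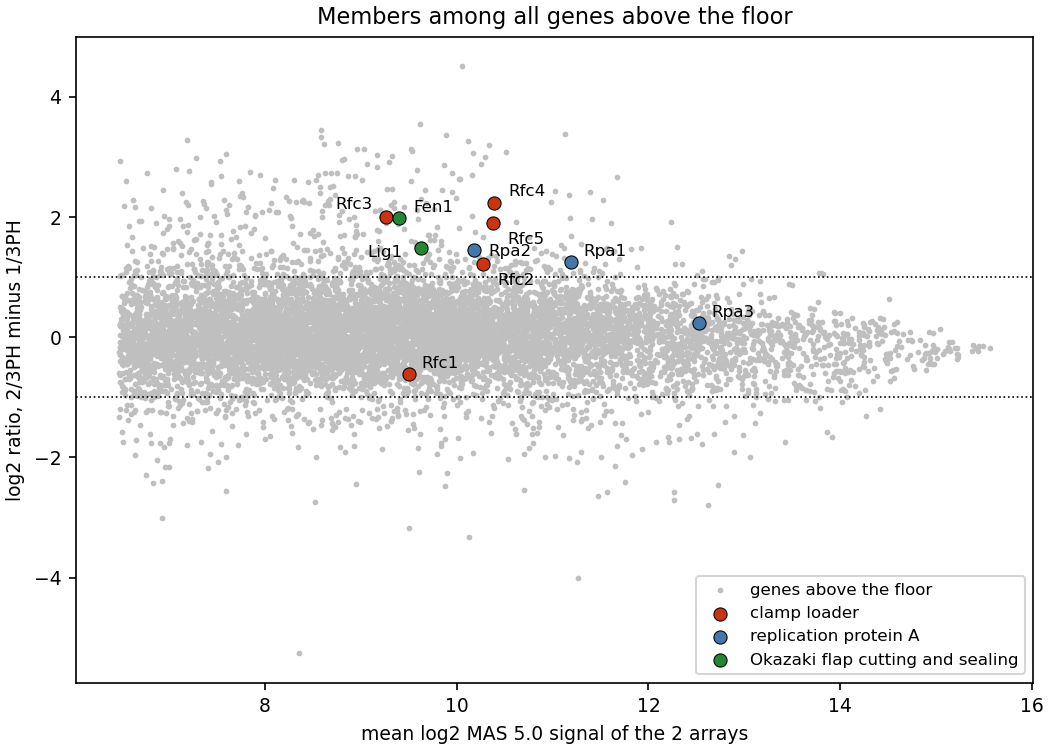
Log2 ratio, 2/3PH minus 1/3PH (vertical axis), against the mean log2 signal of both arrays (horizontal axis) for the 9514 genes above the floor (grey) and the 10 members (coloured by complex), with dotted lines at 2-fold. Of the members, 8 lie above the upper line, with Rpa3 at 0.24 and Rfc1 at -0.61 between the lines.

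The 8 higher members lay near the top of all genes. Each was among the 5% of genes with the highest ratios, which began at a log2 ratio of 1.10. Between 95 genes, for Rfc4, and 372 genes, for Rfc2, had a higher ratio. For Rpa3 it was 3228 genes and for Rfc1 8457 of 9514. The genes closest to the median member in both signal and ratio, outside all gene lists used here, were Nxt1, Sfpq, Nup93, Psmg3 and Nasp. Their log2 ratios were 1.51, 1.36, 1.33, 1.36 and 1.32 in that order. This likeness rests on the 2 arrays alone, and says nothing of other conditions.

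Scaling of the arrays did not move any member across the 2-fold limit. In the 10 other settings that gave each member a ratio, Rfc4 ranged from 2.13 to 2.68, Rfc3 from 1.80 to 2.44, Fen1 from 1.80 to 2.42 and Rfc5 from 1.76 to 2.35, with the values as deposited included. Over the same settings Rpa2 ranged from 1.37 to 1.90, Lig1 from 1.09 to 1.92, Rpa1 from 1.20 to 1.69 and Rfc2 from 1.15 to 1.66. Rpa3 stayed between 0.19 and 0.68, and Rfc1 between -0.71 and -0.17. The second Rfc1 probe set taken alone ran from 0.00 to 0.53. The top of each range came from scaling to the poly-A controls, RNAs of bacterial sequence added to the sample. The other spike-in scaling used controls added before hybridisation, which had a median log2 ratio of -0.24. The poly-A controls had a median log2 ratio of -0.44, and scaling to them moved the median over all probe sets from 0.05 to 0.50. A scaling of this kind moves every gene by the same amount, so the distances between members stayed as they were.

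**Figure D3:**
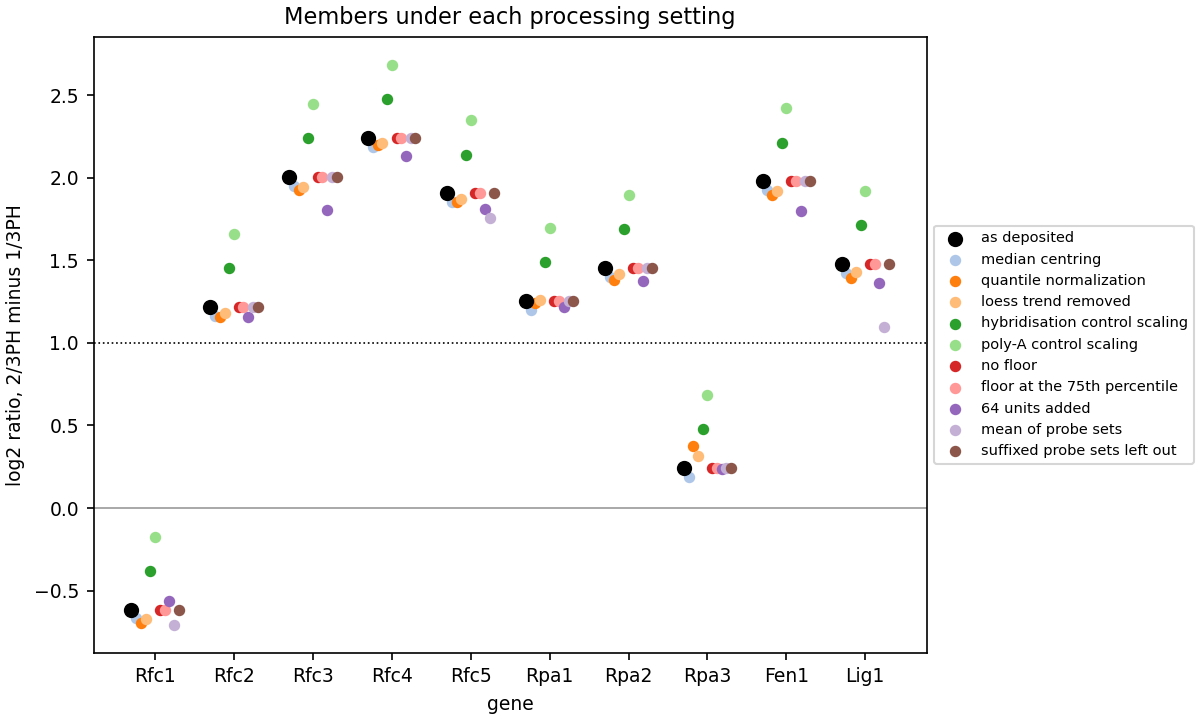
Log2 ratio, 2/3PH minus 1/3PH (vertical axis), of each member (horizontal axis) as deposited (black) and under 10 other settings (colours), with lines at 0 and at 2-fold. The same 8 genes stay above the 2-fold line in every setting drawn, Rpa3 stays between 0.19 and 0.68, and Rfc1 stays below 0.

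The upstream sequences of the members were searched for letters of the kind bound by E2F, the transcription factor family that controls many S-phase genes, because 8 members were higher together. RefSeq promoter windows of the rat assembly GRCr8, from 250 bases before to 50 bases after the annotated start, were found for 9 of the 10 genes, all but Rpa3. Both strands were searched for 4 cores of 7 bases. The core TTCGCGC lies inside the longer form TTTCGCGC. Likewise the core TTGGCGC lies inside the longer form TTTGGCGC, and both longer forms were counted too. The core TTCCCGC was added after the sequences had been seen, as was the core TTGCCGC. The fifth search was for CCAAT. Capitals in the 6 windows below mark these letters, CCAAT left in lower case, with the reverse complement in capitals where the match is on the other strand. The first 5 genes were at least 2-fold higher and cover the different forms, and Rfc1, which was not higher, is shown for contrast. Each is printed 5′ to 3′ on the strand of its gene.
Rfc3, chr12:5836318-5836617, plus strand: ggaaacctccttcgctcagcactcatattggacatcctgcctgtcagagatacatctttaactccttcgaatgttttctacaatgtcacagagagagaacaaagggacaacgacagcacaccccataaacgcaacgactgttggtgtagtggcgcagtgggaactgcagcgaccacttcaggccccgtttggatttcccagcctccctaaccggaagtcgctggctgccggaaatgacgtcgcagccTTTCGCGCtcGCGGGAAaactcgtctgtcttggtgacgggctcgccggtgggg
Lig1, chr1:83242920-83243219, plus strand: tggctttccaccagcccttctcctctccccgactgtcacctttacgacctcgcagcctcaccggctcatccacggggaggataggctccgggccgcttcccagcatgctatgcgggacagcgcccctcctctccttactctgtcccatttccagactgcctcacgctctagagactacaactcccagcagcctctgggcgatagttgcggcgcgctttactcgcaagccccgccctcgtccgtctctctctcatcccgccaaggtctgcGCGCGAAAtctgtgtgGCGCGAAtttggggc
Fen1, chr1:216274347-216274646, minus strand: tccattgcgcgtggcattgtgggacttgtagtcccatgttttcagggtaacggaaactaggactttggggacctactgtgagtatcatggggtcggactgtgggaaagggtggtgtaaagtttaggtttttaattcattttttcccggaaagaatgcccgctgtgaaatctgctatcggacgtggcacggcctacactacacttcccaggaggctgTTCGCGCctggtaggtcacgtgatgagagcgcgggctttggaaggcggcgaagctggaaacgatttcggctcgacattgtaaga
Rpa2, chr5:150260522-150260821, plus strand: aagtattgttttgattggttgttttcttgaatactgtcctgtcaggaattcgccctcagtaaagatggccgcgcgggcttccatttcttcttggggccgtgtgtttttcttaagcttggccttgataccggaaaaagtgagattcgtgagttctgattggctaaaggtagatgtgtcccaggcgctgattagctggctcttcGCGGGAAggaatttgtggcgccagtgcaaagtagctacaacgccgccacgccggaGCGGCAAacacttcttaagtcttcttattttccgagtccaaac
Rfc4, chr11:91254023-91254322, plus strand: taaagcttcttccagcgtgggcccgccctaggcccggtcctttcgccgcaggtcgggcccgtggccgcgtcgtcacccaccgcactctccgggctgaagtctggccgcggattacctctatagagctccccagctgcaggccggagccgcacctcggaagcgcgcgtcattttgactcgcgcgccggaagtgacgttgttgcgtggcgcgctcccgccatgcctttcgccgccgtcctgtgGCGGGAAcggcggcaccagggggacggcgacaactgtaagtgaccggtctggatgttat
Rfc1, chr14:43319748-43320047, plus strand: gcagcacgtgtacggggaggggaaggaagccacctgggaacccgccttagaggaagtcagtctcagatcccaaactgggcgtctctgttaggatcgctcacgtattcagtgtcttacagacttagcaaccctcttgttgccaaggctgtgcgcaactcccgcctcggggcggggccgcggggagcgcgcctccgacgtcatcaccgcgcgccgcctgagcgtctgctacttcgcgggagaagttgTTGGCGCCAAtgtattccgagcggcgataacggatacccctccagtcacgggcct

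TTCGCGC was found in 3 of the 9 windows, those of Rfc3, Lig1 and Fen1, and in 1.51% of all 33365 different rat windows and 3.27% of the 8018 windows of genes above the floor. In Rfc3 the longer form TTTCGCGC spans the start, beginning 3 bases before it. Lig1 carries the core at 2 places downstream of the start, and Fen1 carries it 34 bases upstream. TTTCGCGC was present in 2 of the 9, Rfc3 and Lig1, and in 0.698% of windows of genes above the floor. TTCCCGC was found in Rfc2, Rfc3, Rfc4 and Rpa2, 4 of the 9, and in 8.56% of windows of genes above the floor. TTGCCGC was found in Rpa2 alone among the members, and in 3.27% of those windows. Since TTCCCGC and TTGCCGC were added after the sequences had been seen, their member counts are not independent of that choice.

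The presence of these letters and a ratio past 2-fold did not coincide in every gene. TTGGCGC was found only in Rfc1, on both strands at overlapping places, in a gene that was not higher, and in 4.59% of windows of genes above the floor. TTTGGCGC was in no member window. Rfc5 and Rpa1, both at least 2-fold higher, had none of the 4 cores in their windows. At least 1 of the 4 cores was in 7 of the 9 members and in 18.0% of windows of genes above the floor. This member count is not independent of the late choice of TTCCCGC and TTGCCGC either. Rfc2, Rfc4 and Rpa2 enter it only through those cores. CCAAT was in 4 of the 9, Rfc1, Rfc3, Rpa1 and Rpa2, and in 38.7% of windows of genes above the floor. For comparison, TTCGCGC was in 5 of 5 windows of MCM helicase genes and in 0 of 11 of primase and polymerase genes, although 7 of those 11 held at least 1 of the 4 cores. A match is a run of letters and not a measured binding site, and the windows cover only the annotated start.

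Genes that work beside the members were split by role. Over 6 related lists, 50 of 55 genes had a named probe set and 46 passed the floor, of which 22 were at least 2-fold higher and 1 lower, against the 6.12% and 3.68% given above. Pcna, the clamp that RFC loads, had signals of 4875 and 13226, 2.71-fold higher, with a log2 ratio of 1.44. Its partner protein Pclaf was 6.33-fold higher, with signals of 1296 and 8204. The subunits of the alternative checkpoint clamp that passed the floor were nearer 0, with Rad1 at a log2 ratio of 0.45 and Hus1 at 0.04. This Hus1 value was -0.06 with quantile normalization, and the second Hus1 probe set stood at 0.39 as deposited. Rad9b was under the floor, and Rad9a was not analysed here.

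RFC2 to RFC5 also serve in complexes in which another large subunit replaces RFC1, and genes of these complexes were measured too. Of the 4 such genes that passed the floor, 2 were past 2-fold upward, against 6.12% of all genes, and 2 were not. Dscc1, a subunit of the CTF18 loader, which works in sister chromatid cohesion, had signals of 282 and 1230, 4.36-fold higher. Atad5, the large subunit of the complex that unloads Pcna, had signals of 105 and 246, 2.34-fold higher, and it was under 2-fold, at a log2 ratio of 0.87, with 64 units added to both arrays. The second Atad5 probe set stood at 1.74, with a signal of 84.0 after 1/3PH that lay under the floor. The dimmest, under the floor on both arrays, stood at 0.93. Rad17, which loads the checkpoint clamp, had signals of 693 and 1072, 1.55-fold higher, and Chtf8, another CTF18 subunit, 479 and 575, 1.20-fold higher. The other 2 Chtf8 probe sets were dimmer than the floor on both arrays and lower after 2/3PH. Chtf18 itself was under the floor by its mean, with signals of 47.1 and 119, a difference of at least 1.33-fold. By the probe set that represents each, all 5 of these genes, Chtf18 under the floor among them, had ratios above 0 and Rfc1 did not. Of all 9514 genes above the floor, 5037 had ratios above 0.

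Other genes of primer removal and nick repair were mostly under 2-fold. Of the 10 such genes that passed the floor, 1 was past 2-fold upward and none downward. This count lies near the shares of all genes, 6.12% and 3.68%. Their median log2 ratio was 0.22, against 0.03 over all genes, 1.98 for Fen1 and 1.48 for Lig1. The exception was Exo1, a nuclease related to Fen1, with signals of 186 and 802, 4.31-fold higher. Rnaseh2a, the catalytic subunit of RNase H2, which cuts RNA in RNA-DNA hybrids, had signals of 463 and 924, 1.99-fold higher, just under the limit, and with either spike-in scaling 3 of the 10 genes were past it. Its partners Rnaseh2b and Rnaseh2c had log2 ratios of 0.45 and -0.15, and Rnaseh1 one of 0.02, the last 2 of which changed sign between scalings. The other DNA ligases, Lig3 and Lig4, each had a log2 ratio of -0.33 as deposited, and one of 0.12 and 0.11 with poly-A control scaling, which turned their sign. Their second probe sets stood at -0.55 for Lig3 and -0.80 for Lig4, and stayed below 0 with that scaling, at -0.11 and -0.35. The base excision repair genes Polb, Parp1 and Xrcc1 had log2 ratios of 0.83, 0.41 and -0.11, but the second Polb probe set stood at -0.33 and Xrcc1 turned positive under both spike-in scalings. Dna2, the other flap nuclease, was not analysed here.

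The enzymes that make the fragments and the helicase that opens the DNA were higher in most subunits. Of 11 primase and replicative polymerase genes, 8 were past 2-fold, against 6.12% of all genes, and the list's median log2 ratio was 1.20. That count was 7 with median centring or loess, 6 with quantile normalization and 9 with poly-A control scaling. It was 4 with 64 units added, where Pola1, Pola2, Pold2 and Pole, named after their values were seen, were under the limit. Of all genes, 582 of 9514 were past 2-fold as deposited, 1599 with poly-A control scaling and 425 of 9510 with 64 units added. Pold1, the catalytic subunit of the lagging-strand polymerase, was 4.60-fold higher, Pole2 3.34-fold, the primase subunits Prim1 and Prim2 2.90-fold and 2.67-fold. The 3 subunits under 2-fold, named after their values were seen, were Pold3 at a log2 ratio of 0.70, Pole4 at 0.49 and Pold4 at -0.23, the last turning positive under both spike-in scalings. The 6 MCM helicase genes all passed 2-fold, against 6.12% of all genes, at log2 ratios from 1.40 to 2.48 and a median of 1.79. The members' median of 1.47 lay between those of these lists, and no test of the difference between lists was possible.

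**Figure D4:**
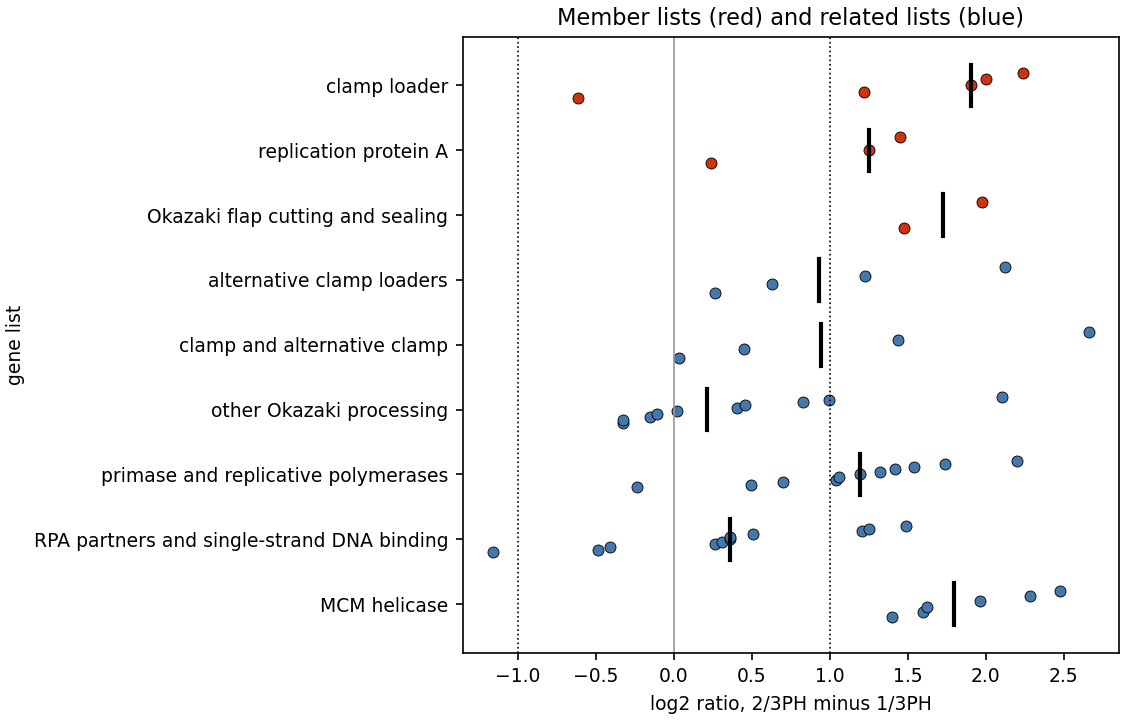
Log2 ratio, 2/3PH minus 1/3PH (horizontal axis), of each gene above the floor in the 3 member lists (red) and 6 related lists (blue), with a black bar at each list's median and dotted lines at 2-fold. The MCM genes all lie past 2-fold, and the clamp loader has Rfc1 alone below 0. The other Okazaki processing list, which includes the repair genes Polb, Parp1 and Xrcc1, has 9 of 10 genes under 2-fold.

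The list of RPA partners and single-strand DNA binding genes, which also holds fork and checkpoint genes, showed smaller differences. Its median log2 ratio was 0.36 over 11 genes above the floor. Of these, 3 were at least 2-fold higher and 1 lower, against 6.12% and 3.68% of all genes. Wdhd1, which links the helicase to the primase, was 2.81-fold higher, Timeless, of the fork protection complex, 2.38-fold, and the checkpoint kinase Atr 2.31-fold, or a log2 ratio of 0.88 with 64 units added. Nabp1, a single-strand binding protein outside RPA, had signals of 1391 and 621, 2.24-fold lower. It was under 2-fold with both spike-in scalings, at a log2 ratio of -0.93 with hybridisation controls and -0.72 with poly-A controls.

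The arrays carried the marks of liver. All 6 hepatocyte markers measured, among them Alb and Ttr, had signals of 26282 or more on both arrays, and their summed signal was 229346 after 1/3PH and 199800 after 2/3PH. Above the floor were 19 markers of macrophages, endothelium, stellate cells, cholangiocytes, neutrophils and red cells. As deposited, 15 of them had ratios below 0, 4 were at least 2-fold lower and none was 2-fold higher. Of all 9514 genes above the floor, 3.68% were 2-fold lower and 6.12% higher, and 5037 had ratios above 0. The 4 lower markers had log2 ratios from -1.33 to -1.04, and the hepatocyte markers from -0.24 to -0.05. The poly-A controls had a median of -0.44. With scaling to them none of the 4 stays 2-fold lower, and the hepatocyte ratios turn positive. All 5 lymphocyte markers measured were under the floor. Summed macrophage signal was 8280 and 6261, and summed endothelial signal 6017 and 3271. The part of changes in cell makeup in the ratios of the members was not tested.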

How the data were processed

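Liver RNA pooled from 3 rats per group was measured on 1 array for 1/3PH and 1 for 2/3PH. Per the labels' protocols, the authors computed signals with MAS 5.0 in GeneSpring 11.0, and the deposited values are log2 signals of 31099 probe sets. Base 2 was checked by raising 2 to each value, which gave trimmed means (2% off each end) of 500.3 and 500.2. MAS 5.0 scaling gives both arrays 1 mean, so a change in total RNA per cell is not visible. Scaling target and detection calls are not given in the labels.

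Of 31042 probe sets that are not controls, 20826 had 1 symbol in the platform annotation, updated through Entrez identifiers to RefSeq of GRCr8, 436 had several and 9780 were unnamed. The floor on a probe set's mean log2 signal was their median, 6.48. Where the dimmer signal lay under it, the fold is given as "at least", against the floor signal. Arrays were compared by log2 ratio and counts past 2-fold, with no test. The limit of precision is the number of arrays.

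Members and lists were chosen with earlier results of these data known. Named were all members, Pcna, the alternative clamp loader and other Okazaki processing genes, up to 4 genes of each other related list by absolute ratio, and the 5 genes nearest the median member. Alternatives were 5 scalings, 2 floors, 64 added units, 2 ways to choose probe sets, and limits of 1.5-fold and 3-fold. The procedure was tested on simulated data in which the planted changes were 4-fold, which does not test calls near the 2-fold limit. Python 3.11.15, pandas 2.3.3 and statsmodels 0.14.6 were used.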

Additional observations from a re-analysis of the deposited data

How the results depend on the processing

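The count of 8 members at least 2-fold higher was the same in 11 of the 12 alternatives, and 4 members passed at the 3-fold limit. Not all alternatives could lower it. The 2 other floors kept all 10 members and changed no member ratio, and neither did leaving out probe sets with a suffixed name. The spike-in scalings raise every ratio, and a 1.5-fold limit cannot give fewer genes than a 2-fold limit. The members' median log2 ratio, 1.47 as deposited, was 1.91 with poly-A control scaling and between 1.35 and 1.70 in the other settings. With poly-A control scaling the list medians were 1.37 for alternative clamp loaders, 1.39 for clamps, 0.66 for other Okazaki processing, 1.64 for primase and polymerases, 0.80 for RPA partners and 2.24 for MCM genes. The median of the alternative clamp loaders was 1.30 with the mean of probe sets, which left 3 genes. With the 75th percentile floor that of the clamps was 1.44 and that of primase and polymerases, with 6 genes left, 0.87, and with no floor that of the clamps was 0.45. Of the related genes, 22 of 46 were 2-fold higher as deposited, 13 of 30 with the 75th percentile floor and 10 of 46 at the 3-fold limit. Of all genes, 582 were 2-fold higher as deposited, 973 with hybridisation control scaling, 1599 with poly-A control scaling, 1662 without a floor, 285 with the 75th percentile floor, 1504 at 1.5-fold and 213 at 3-fold. No median of a list and no ratio of a member changed sign. Lig1 stood at 1.09 with the mean of its probe sets. No paired analysis was possible because each group has 1 array. No replicate could be left out for the same reason. The signal over background is unknown, since no detection calls were used here.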
